A study of Mus musculus with 13 samples.

Results

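The citrate cycle and mitochondrial fatty acid oxidation were followed in the mouse retina through 33 genes. These were chosen by symbol and not by a cutoff on their values, but with earlier results of these data known. They were the enzymes of pyruvate dehydrogenase and of the citrate cycle except isocitrate dehydrogenase (16 genes), and the enzymes and carriers of mitochondrial fatty acid oxidation (17 genes). All 33 were measured, among 19937 genes in all. PGC-1α KO and WT mice were compared in the dark and after light exposure, on Affymetrix Mouse Gene 1.0 ST arrays. Each array held RNA of the 2 pooled retinae of 1 mouse. The question was what the loss of PGC-1α and strong light did to these genes.

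KO dark stands for PGC-1α global KO mice on C57 BL/6 that stayed dark adapted (3 arrays), and WT dark for C57 BL/6 NRj mice treated alike (4 arrays). KO light (3 arrays) and WT light (3 arrays) stand for mice of the same genotypes that received strong white light for 2 h after dark adaptation. The mice were 6 to 13 weeks old. The time between light and RNA extraction is not given for the arrays. The KO lacks PGC-1α in every cell of the body and from conception. WT mice were bought from a breeder and KO mice came from another laboratory, so that the groups were not littermates and genotype and colony cannot be told apart. The labels give female mice for the dark groups, except for WT dark 4, and male mice for the light groups, whereas the methods name male mice. Xist and the Y-linked Uty followed the labels in all 13 arrays, and light and sex therefore changed together in every comparison of light with dark.

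Values are log2 of the deposited probe set intensities, averaged per gene. WT dark 4 was left out of the comparisons as labelled, which leaves 3 arrays per group. Differences were tested with limma over all 19937 genes. Calling a gene took both an adjusted p (Benjamini-Hochberg) under 0.05 and a ratio no closer to 1 than 1.2 or 0.87. Exact permutation of 3 against 3 arrays has 0.1 as its smallest p. Ppargc1a, which encodes PGC-1α and is the average of 2 probe sets, had log2 intensities of 10.19 to 10.40 in KO dark, 10.01 to 10.03 in WT dark, 9.85 to 9.99 in WT light and 9.96 to 10.25 in KO light. No source used here places these probe sets inside or outside the deleted part, so these values do not check the genotype. The 9 rod markers measured, rhodopsin among them, had a summed intensity of 45912 to 55997 in the 13 arrays.

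A pair of arrays stood apart from their labels. The array labelled KO light 3 correlated with WT dark 1 to 3 at 0.9968 on average and with KO light 1 and 2 at 0.9921, over all genes. The array labelled WT dark 4 correlated with KO light 1 and 2 at 0.9975 and with WT dark 1 to 3 at 0.9892. For 15 of the 33 genes KO light 1 and 2 both lay outside WT dark 1 to 3 on the same side. In 12 of these 15 genes KO light 3 lay nearer to the WT dark mean, and in 11 of them WT dark 4 lay nearer to KO light 1 and 2. The same counts were not made over all genes, so they describe the arrays and do not set the 33 genes apart. Every comparison is therefore given as labelled and again with the array labelled WT dark 4 in place of KO light 3, called the exchanged array. That arrangement rests on the values of the arrays and not on a label.

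Pyruvate dehydrogenase turns pyruvate from glycolysis into acetyl-CoA, and the citrate cycle oxidizes the acetyl group and hands its electrons to the respiratory chain. Fatty acids enter mitochondria as carnitine esters and are shortened in rounds of dehydrogenation, hydration, dehydrogenation and thiolysis, which yield acetyl-CoA for the same cycle. Photoreceptor inner segments are packed with mitochondria. PGC-1α is a coactivator of nuclear receptors such as the estrogen-related receptors, and of nuclear respiratory factors, through which it raises genes of both pathways in muscle, heart and brown fat.

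**Figure D1:**
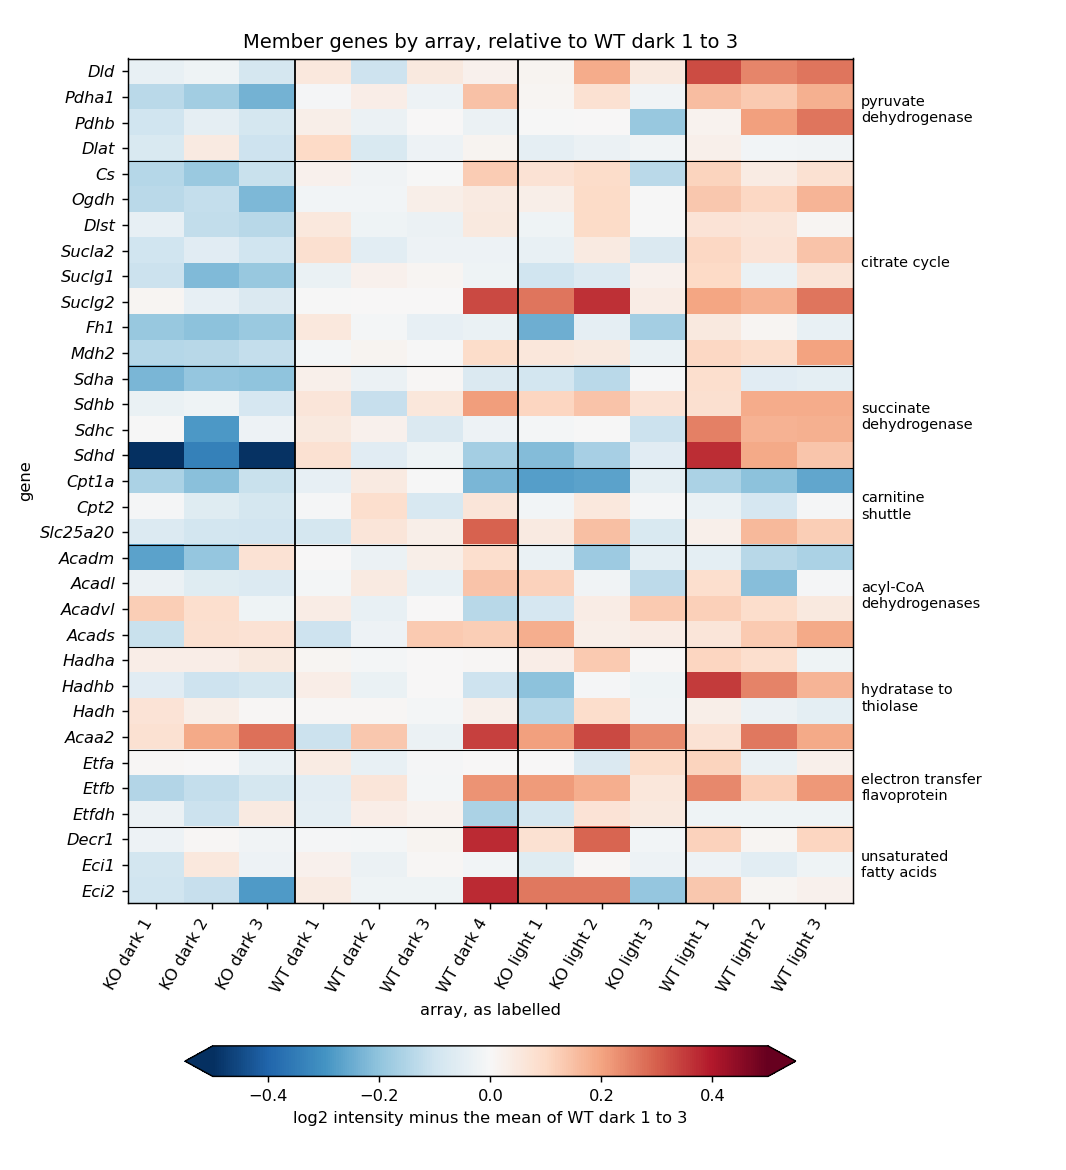
The 33 genes (vertical axis, grouped by role) in each of the 13 arrays (horizontal axis, as labelled), coloured by log2 intensity minus the mean of WT dark 1 to 3 (blue is lower, red is higher). KO dark arrays are mostly blue over the upper 16 genes, and WT dark 4 resembles KO light 1 and 2 in Suclg2 and Eci2, whereas KO light 3 does not.

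In the dark, all 16 genes of pyruvate dehydrogenase and the citrate cycle had a lower mean in KO than in WT retinae, but no single one passed the test as labelled. Their median log2 difference was -0.12, against 0.00 over all genes, of which 48.4% had a lower mean. The 17 genes of fatty acid oxidation had a median of -0.03, with 12 lower and 5 higher means. None of the 33 was called by limma, and 0.0752% of all genes were. At an unadjusted p under 0.05, with the ratio thresholds, 2 genes were lower and 0 higher, and without moderated variances 0 were called as well. The KO and WT arrays did not overlap for 11 of the 16 citrate cycle genes, all of them lower in KO. Of the fatty acid oxidation genes, 4 were lower and 1, Hadha, was higher without overlap. Among all genes 7.45% lay lower without overlap and 9.26% higher. In bulk RNA, fewer cells that express a gene and less RNA per cell cannot be told apart.

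Succinate dehydrogenase, the complex II that belongs both to the citrate cycle and to the respiratory chain, held the gene with the largest difference of the 33. Sdhd encodes one of the 2 subunits that anchor the complex in the inner membrane. Its log2 intensity was 8.06, 8.26 and 8.10 in KO dark and 8.67, 8.54 and 8.57 in WT dark. It was 8.38, 8.43 and 8.54 in KO light and 8.96, 8.78 and 8.73 in WT light, and 8.43 in the array labelled WT dark 4. Every KO array lay below every WT array of the same light condition. The log2 difference in the dark was -0.46 (SE 0.07, 95% interval -0.62 to -0.30, adjusted p = 0.051), a ratio of 0.729. With the exchanged array, which changes the estimate of spread but none of the dark values, Sdhd was called lower (adjusted p = 0.00411), as were 0.552% of all genes. Over all alternatives its adjusted p ran from 0.00411 to 0.242, and it was called under 9 of 23.

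Sdha, the flavoprotein that oxidizes succinate, had 10.80, 10.83 and 10.82 in KO dark and 11.05, 10.99 and 11.03 in WT dark. These arrays did not overlap either, and WT dark 4 had 10.95. Its difference was -0.21 (SE 0.05, adjusted p = 0.193, and 0.0555 with the exchanged array). Sdhc, the other anchor subunit, had a difference of -0.11 (SE 0.07), and Sdhb, the iron-sulfur subunit, had -0.05 (SE 0.06). The 4 subunits thus had differences between -0.46 and -0.05 in the same arrays.

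Promoter windows, from 250 bases before to 50 bases after the annotated start, were at hand for 30 of the 33 genes, from RefSeq on GRCm38.p6. Both strands were searched for the binding letters of the estrogen-related receptors (TNAAGGTCA), of nuclear respiratory factor 1 (GCGCANGCG) and of the Ets family to which nuclear respiratory factor 2 belongs (CCGGAAG), and for the nuclear receptor core letters AGGTCA, which the first of them contains. Sdhd was the only one of the 30 with the estrogen-related receptor letters (3.3%, against 1.43% of the 27025 genes with a window). Its window held matches of all 4 searches, the core letters within the longer one. Letters of nuclear respiratory factor 1 were found in 8 of the 30 genes (26.7%, against 7.03% of all genes): Acadm, Dld, Etfb, Etfdh, Ogdh, Sdha, Sdhd and Sucla2. The Ets letters were found in 5 of 30 (16.7%, against 9.93%) and the core letters in 8 of 30 (26.7%, against 18.13%). A match describes letters and does not show that a factor binds. The windows of Sdhd (chr9:50603800-50604099, minus strand) and Sdha (chr13:74350191-74350490, minus strand) are shown because these were the 2 subunits with the largest dark differences. Capitals mark the matches, which in Sdhd are, from left to right, those of nuclear respiratory factor 1, of the Ets family on the other strand, and of the estrogen-related receptors on the other strand. In Sdha all 3 capital runs are matches of nuclear respiratory factor 1.
Sdhd: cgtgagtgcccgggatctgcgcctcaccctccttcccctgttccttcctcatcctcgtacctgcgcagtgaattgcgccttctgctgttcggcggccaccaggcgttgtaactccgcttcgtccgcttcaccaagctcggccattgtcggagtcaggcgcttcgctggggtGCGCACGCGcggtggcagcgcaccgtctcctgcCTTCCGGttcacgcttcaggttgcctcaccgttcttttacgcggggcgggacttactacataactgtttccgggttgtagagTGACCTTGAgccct
Sdha: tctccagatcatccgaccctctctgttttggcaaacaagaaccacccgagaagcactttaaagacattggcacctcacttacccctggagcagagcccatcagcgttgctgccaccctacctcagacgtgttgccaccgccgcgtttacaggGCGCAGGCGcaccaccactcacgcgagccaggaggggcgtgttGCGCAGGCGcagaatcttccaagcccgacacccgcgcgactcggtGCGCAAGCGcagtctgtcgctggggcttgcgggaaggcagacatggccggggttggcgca

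Sdhd lies on chromosome 9 (chr9:50596340-50603849), as do Dlat, Slc25a20 and Etfa, which had dark differences of -0.04, -0.09 and -0.01. Of the 1167 genes of chromosome 9 in the fit, 5 were called in the dark (0.428%), against 10 of 18751 on the other chromosomes (0.0533%). With the exchanged array they were 40 (3.43%) and 135 (0.72%). Of the 10 nearest genes, Pts was lower in KO dark by a log2 difference of -0.61 and was called (adjusted p = 0.0392), Pih1d2 had -0.43 (adjusted p = 0.167) and Il18 had 1.31 (adjusted p = 0.119). Timm8b, the neighbour on one side of Sdhd, had 0.03 and Tex12 on the other side had 0.00. Whether the sequence of this stretch differs between the KO and the WT colony was not tested.

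The other citrate cycle enzymes had smaller differences in the dark. Fumarase (Fh1) had -0.19 (SE 0.06), Suclg1, the α subunit of succinyl-CoA ligase, had -0.17, 2-oxoglutarate dehydrogenase (Ogdh) had -0.16, citrate synthase (Cs) had -0.15 and malate dehydrogenase 2 (Mdh2) had -0.13. None of these overlapped between KO dark and WT dark, and their adjusted p lay between 0.283 and 0.604. Dlst, the E2 component of the 2-oxoglutarate dehydrogenase complex, and the β subunits Sucla2 and Suclg2 had -0.10, -0.08 and -0.03. Pdha1, the X-linked catalytic subunit of pyruvate dehydrogenase, had 8.94, 8.90 and 8.84 in KO dark and 9.07, 9.11 and 9.05 in WT dark, without overlap. Its difference was -0.18 (SE 0.05, adjusted p = 0.193). Its partner Pdhb had -0.08, and Dld and Dlat, the E3 and E2 components, had -0.05 and -0.04.

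Fatty acid oxidation genes went both ways in the dark. Cpt1a, which makes the acyl-carnitines that enter mitochondria and sets the pace of the pathway, had 10.76, 10.71 and 10.80 in KO dark and 10.87, 10.96 and 10.91 in WT dark, without overlap. Its difference was -0.16 (SE 0.06, adjusted p = 0.595). Eci2, an isomerase that prepares unsaturated chains, had -0.17 (SE 0.10), Etfb, a subunit of the electron transfer flavoprotein, had -0.12 (SE 0.06) and Hadhb, the thiolase subunit of the trifunctional protein, had -0.08. These 3 did not overlap either. Cpt2, the inner membrane partner of Cpt1a, and the carnitine carrier Slc25a20 had -0.05 and -0.09. Acaa2, the thiolase for medium chains, went the other way with 0.18 (SE 0.08, adjusted p = 0.636), with overlap. The acyl-CoA dehydrogenases Acadm, Acadl, Acads and Acadvl had -0.13, -0.05, 0.01 and 0.06. The 3-hydroxyacyl-CoA dehydrogenase Hadh had 0.03, Eci1, another isomerase, had -0.02, and Decr1, a reductase for unsaturated chains, had -0.01.

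**Figure D2:**
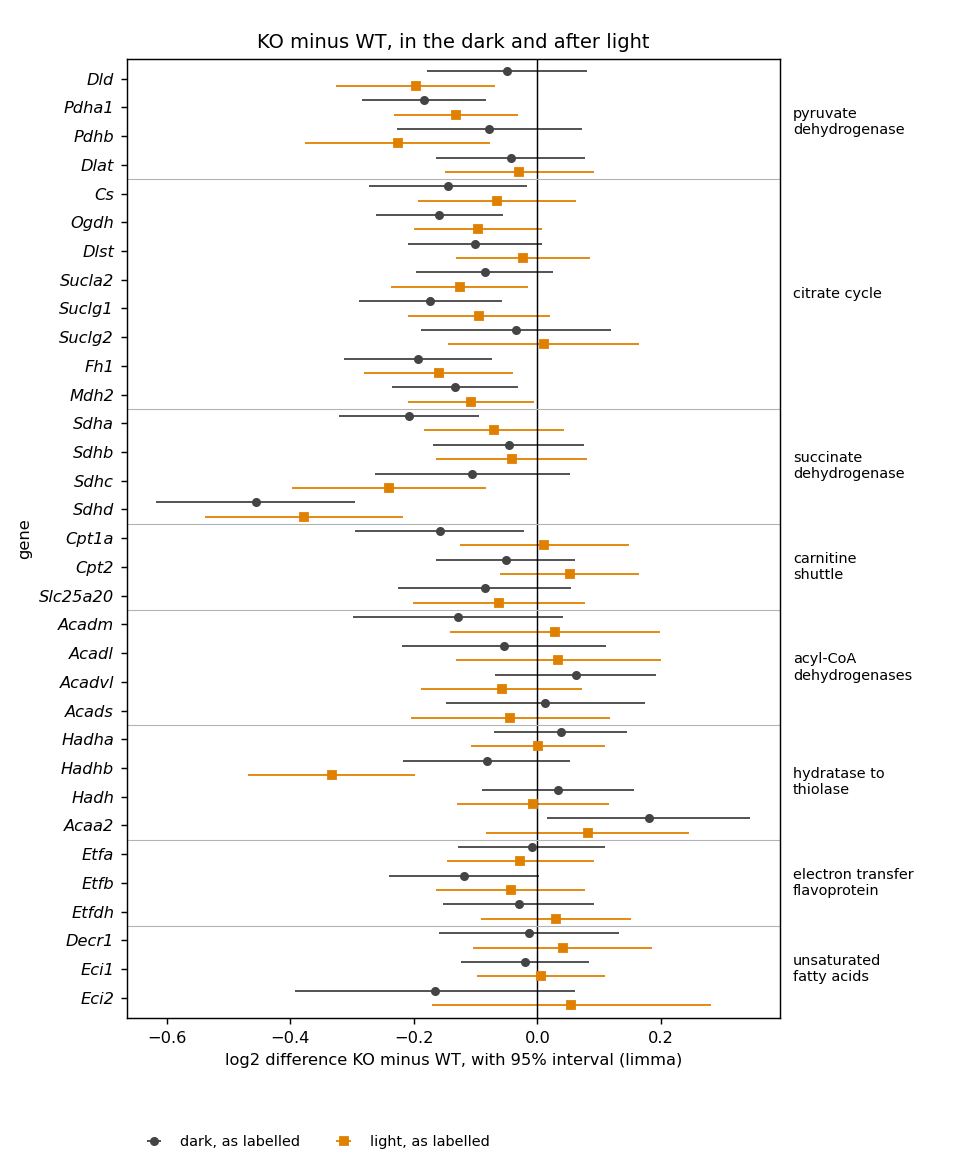
Log2 difference KO minus WT (horizontal axis) with the 95% interval of limma for each gene (vertical axis, by role), in the dark (circles) and after light (squares), as labelled, with 3 arrays per group. The upper 16 genes lie at or left of 0 in both conditions except Suclg2 after light, at 0.01, and Hadhb lies at -0.33 after light while Hadha lies at 0.00.

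After light, pyruvate dehydrogenase and citrate cycle genes again had lower means in KO than in WT retinae, and fatty acid oxidation genes did not as a group. None of the 33 genes was called between KO and WT as labelled (0.176% of all genes were). There were 4 lower and 0 higher at an unadjusted p under 0.05 and the ratio thresholds, and 0 called without moderated variances. The 16 genes of the first group had a median of -0.10, with 15 lower and 1 higher mean. Over all genes the median was -0.01, and 56.5% had a lower mean. Of the 16, 9 did not overlap, all lower in KO. The 17 fatty acid oxidation genes had a median of 0.01, with 7 lower means, and 1 did not overlap. Of all genes, 8.45% were lower and 5.63% higher without overlap. Hadhb, Sdhd and Dld were called lower in KO light with the exchanged array and none was called higher. Of all genes 3.66% were called lower there, and 910 of the 19937 were called higher. Eci2 had a higher mean in KO light that passed the adjusted p but not the ratio threshold there (0.24, adjusted p = 0.016). In that arrangement 7 of the 16 and 2 of the 17 were lower without overlap, and 1 of the 17 was higher, against 15.4% and 13.9% of all genes. Lower means were found there for 13 of the 16 (median -0.09) and 6 of the 17 (median 0.01). Of all genes 58.9% had a lower mean (median -0.02).

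Hadhb and Hadha encode the β and α subunits of the trifunctional protein, which carries out the last 3 steps of each round for long chains. Hadhb had 8.52, 8.72 and 8.70 in KO light and 9.07, 8.97 and 8.90 in WT light. All KO light arrays lay below all WT light arrays, and WT dark 4 had 8.62. In KO dark it had 8.67, 8.62 and 8.64. The difference after light was -0.33 (SE 0.06, 95% interval -0.47 to -0.20, adjusted p = 0.0639), a ratio of 0.794. It was -0.36 and called with the exchanged array (adjusted p = 0.00158). Its adjusted p ran from 0.00158 to 0.528 over all alternatives. Hadha had 9.90, 9.99 and 9.87 in KO light and 9.97, 9.95 and 9.84 in WT light. These arrays overlapped, and the difference was 0.00 (SE 0.05, 95% interval -0.11 to 0.11). The test of Hadhb's difference between light and dark, the interaction of genotype and light, gave -0.25 (SE 0.09, adjusted p = 0.57, and 0.0945 with the exchanged array).

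The 2 genes stand head to head on chromosome 5, Hadha starting at base 30154980 on the minus strand and Hadhb starting at base 30155253 on the plus strand. Their promoter windows share 228 bases. The window of Hadhb (chr5:30155003-30155302, plus strand) is shown because one stretch of DNA stands before the starts of both genes. Capitals mark the bases that also lie in the window of Hadha, and neither window matched any of the 4 searches. Ppargc1a itself lies on the same chromosome, 21.3 Mb further on.
Hadhb: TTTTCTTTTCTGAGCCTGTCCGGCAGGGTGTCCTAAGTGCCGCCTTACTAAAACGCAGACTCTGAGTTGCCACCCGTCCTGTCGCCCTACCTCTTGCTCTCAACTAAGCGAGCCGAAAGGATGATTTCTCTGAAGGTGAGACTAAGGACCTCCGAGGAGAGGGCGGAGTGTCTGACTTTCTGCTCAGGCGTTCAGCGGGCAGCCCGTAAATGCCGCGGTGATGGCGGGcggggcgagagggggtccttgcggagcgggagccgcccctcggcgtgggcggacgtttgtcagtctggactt

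Sdhd had a difference of -0.38 (SE 0.07, adjusted p = 0.0677) after light and was called with the exchanged array (-0.42, adjusted p = 0.00164). Dld, the dihydrolipoyl dehydrogenase shared by pyruvate dehydrogenase and the 2-oxoglutarate dehydrogenase complex, had 8.99, 9.16 and 9.03 in KO light and 9.31, 9.23 and 9.25 in WT light. Its arrays did not overlap. In KO dark it had 8.94, 8.96 and 8.89, and WT dark 4 lay within the range of WT dark 1 to 3. The difference after light was -0.20 (SE 0.06, adjusted p = 0.207), and with the exchanged array it was -0.21 and called (adjusted p = 0.0349). Sdhc had -0.24 (SE 0.07) and Pdhb had -0.23 (SE 0.07), both without overlap and neither called in either arrangement of the 4 groups. When only the light arrays were fitted with the exchanged array, an alternative added after the data were seen, Sdhc was called too (adjusted p = 0.0321). The remaining genes of the pyruvate and citrate cycle group lay between -0.16 for Fh1 and 0.01 for Suclg2, and those of fatty acid oxidation other than Hadhb between -0.06 and 0.08.

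**Figure D3:**
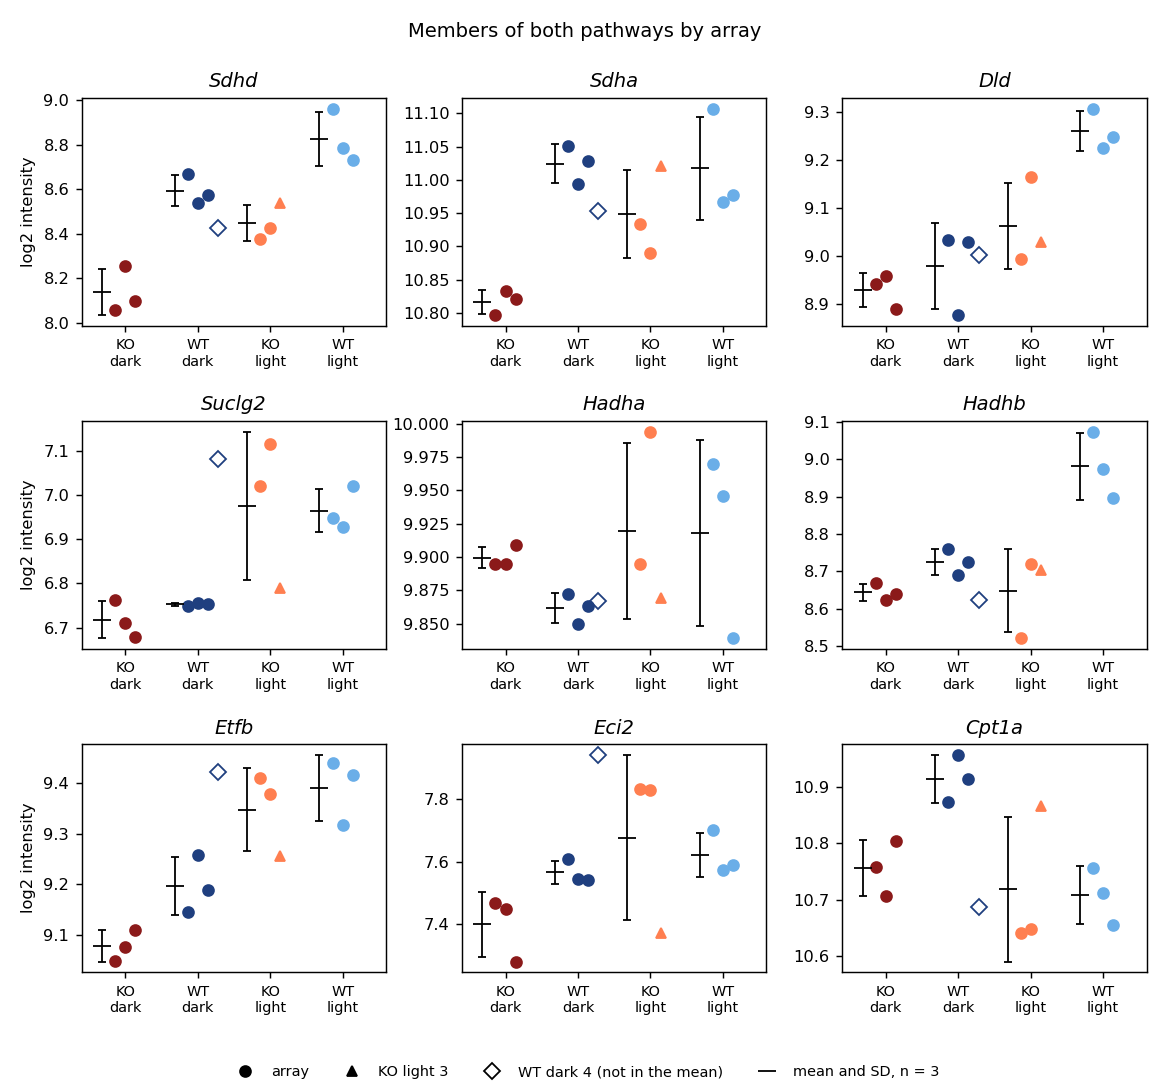
Log2 intensity (vertical axes, which start above 0 and differ between panels) of 9 genes in each array of the 4 groups, with the mean and SD of 3 arrays as black bars. The triangle is KO light 3 and the open diamond is WT dark 4, which is not in the mean. Every KO array of Sdhd lies below every WT array of the same light condition, and in Eci2 and Suclg2 KO light 3 lies below KO light 1 and 2 and WT dark 4 lies above WT dark 1 to 3.

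After light, KO retinae had a higher mean than in the dark for 29 of the 33 genes, with a median of 0.07, against 0.00 over all genes. The citrate cycle group had 16 of 16 higher means (median 0.13), 10 of them without overlap, and fatty acid oxidation had 13 of 17 (median 0.04), 1 of them without overlap. Of all genes 6.44% were higher and 6.67% lower without overlap. None of the 33 was called as labelled (0.100% of all genes were). There were 0 lower and 3 higher at an unadjusted p under 0.05 and the ratio thresholds, and 0 called without moderated variances. Eci2, Suclg2, Etfb and Sdhd rose and none fell with the exchanged array. Of all genes 7.01% were called higher there, and 1256 of the 19937 were called lower. Then 13 of the 16 and 5 of the 17 were higher and 1 of the 17 was lower without overlap, against 20.0% higher and 18.0% lower of all genes. The median over the 33 was 0.11 in that arrangement. A further 8 of the 33 passed the adjusted p there but not the ratio threshold, all with higher means in KO light. These were Cs (0.24), Pdha1 (0.26), Ogdh (0.22), Mdh2 (0.20), Decr1 (0.26), Slc25a20 (0.25), Sdhb (0.20) and Dlst (0.14), with adjusted p from 0.00105 for Cs to 0.0471 for Dlst. All 4 calls were also made when KO light 3 was left out with no array in its place.

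Eci2 had the largest difference of the 4. It had 7.47, 7.45 and 7.28 in KO dark and 7.83, 7.83 and 7.37 in KO light as labelled, so that KO light 3 lay among the KO dark arrays. The array labelled WT dark 4 had 7.94. As labelled the difference was 0.28 (SE 0.10, adjusted p = 0.271), and with the exchanged array it was 0.47 (SE 0.06, adjusted p = 0.000145). In WT retinae Eci2 had 7.61, 7.55 and 7.54 in the dark and 7.70, 7.57 and 7.59 after light, a difference of 0.06. The interaction was 0.22 (adjusted p = 0.816) as labelled and 0.41 with the exchanged array (SE 0.08, adjusted p = 0.0211). Eci2 was the only one of the 33 called for the interaction in that arrangement, where 2.78% of all genes were called. As labelled 0.0602% of all genes and none of the 33 were called for the interaction, with 1 below and 0 above 0 at an unadjusted p under 0.05, and 0 called without moderated variances.

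Suclg2, the GTP-forming subunit of succinyl-CoA ligase, had 6.76, 6.71 and 6.68 in KO dark and 7.02, 7.12 and 6.79 in KO light, with 7.08 in the array labelled WT dark 4. The difference was 0.26 (SE 0.07, adjusted p = 0.174) as labelled and 0.35 (SE 0.04, adjusted p = 0.000135) with the exchanged array. In WT it had 6.75, 6.76 and 6.75 in the dark and 6.95, 6.93 and 7.02 after light, without overlap (0.21, adjusted p = 0.164). Suclg2 was the only one of the 33 read by 2 probe sets, and the mean of both was higher after light in each genotype. One had 6.47, 6.41 and 6.61 in KO dark and 6.77, 6.64 and 6.64 in KO light, without overlap. The other had 7.06, 7.01 and 6.75 in KO dark and 7.27, 7.59 and 6.93 in KO light, which overlapped.

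Etfb, through which the acyl-CoA dehydrogenases pass on their electrons, had 9.05, 9.08 and 9.11 in KO dark and 9.41, 9.38 and 9.26 in KO light. These arrays did not overlap, and WT dark 4 had 9.42. The difference was 0.27 (SE 0.06, adjusted p = 0.0907), and 0.32 with the exchanged array (adjusted p = 0.000395). In WT it had 9.15, 9.26 and 9.19 in the dark and 9.44, 9.32 and 9.42 after light (0.19, adjusted p = 0.123). Its partners Etfa and Etfdh had 0.02 and 0.04 in KO. Sdhd had 0.31 in KO (SE 0.07, adjusted p = 0.138) and 0.27 with the exchanged array (adjusted p = 0.0112). Pdha1 had 9.09, 9.15 and 9.06 in KO light and 9.23, 9.21 and 9.26 in WT light, with 9.22 in WT dark 4. Its difference between light and dark was 0.21 (SE 0.05, adjusted p = 0.119) in KO. The promoter windows of Etfb (chr7:43443822-43444121, plus strand) and Dld (chr12:31351422-31351721, minus strand) are shown as those of the other genes called in an arrangement that hold the letters of nuclear respiratory factor 1, in capitals.
Etfb: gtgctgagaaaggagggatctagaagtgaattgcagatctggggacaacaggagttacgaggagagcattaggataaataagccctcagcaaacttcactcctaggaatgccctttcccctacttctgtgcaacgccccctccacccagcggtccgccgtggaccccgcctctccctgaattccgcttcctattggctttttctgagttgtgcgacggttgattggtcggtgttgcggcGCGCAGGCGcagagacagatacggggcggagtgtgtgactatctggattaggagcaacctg
Dld: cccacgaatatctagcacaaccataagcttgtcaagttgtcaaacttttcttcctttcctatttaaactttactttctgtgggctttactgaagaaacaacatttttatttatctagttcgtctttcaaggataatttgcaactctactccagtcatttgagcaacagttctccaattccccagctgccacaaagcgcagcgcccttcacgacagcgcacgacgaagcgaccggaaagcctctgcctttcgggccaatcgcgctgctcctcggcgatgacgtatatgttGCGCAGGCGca

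In WT retinae 24 of the 33 genes had a higher mean after light, with a median of 0.08, against 0.02 over all genes. The citrate cycle group had 14 of 16 higher means (median 0.13, 9 without overlap) and fatty acid oxidation 10 of 17 (median 0.06, 3 higher and 2 lower without overlap). Of all genes 17.5% were higher and 10.7% lower without overlap. None was called as labelled (0.431% of all genes were). There were 1 lower and 1 higher at an unadjusted p under 0.05 and the ratio thresholds, and 0 called without moderated variances. Dld had 9.03, 8.88 and 9.03 in WT dark, below all WT light arrays, and its difference was 0.28 (SE 0.06, adjusted p = 0.0606). Cpt1a had 10.76, 10.71 and 10.65 in WT light, below all WT dark arrays, with a difference of -0.21 (SE 0.06, adjusted p = 0.138). These are the E3 component and the entry enzyme of fatty acid oxidation. Hadhb had 8.76, 8.69 and 8.73 in WT dark, below all WT light arrays, with 0.26 (SE 0.06, adjusted p = 0.0793). The exchanged array again changes only the spread here, and Dld was then called higher (adjusted p = 0.0131) and Cpt1a lower (adjusted p = 0.0159), among 4.41% of all genes called. Hadhb (adjusted p = 0.0194), Suclg2 (0.21, adjusted p = 0.0131) and Etfb (0.19, adjusted p = 0.0264) then passed the adjusted p but not the ratio threshold.

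**Figure D4:**
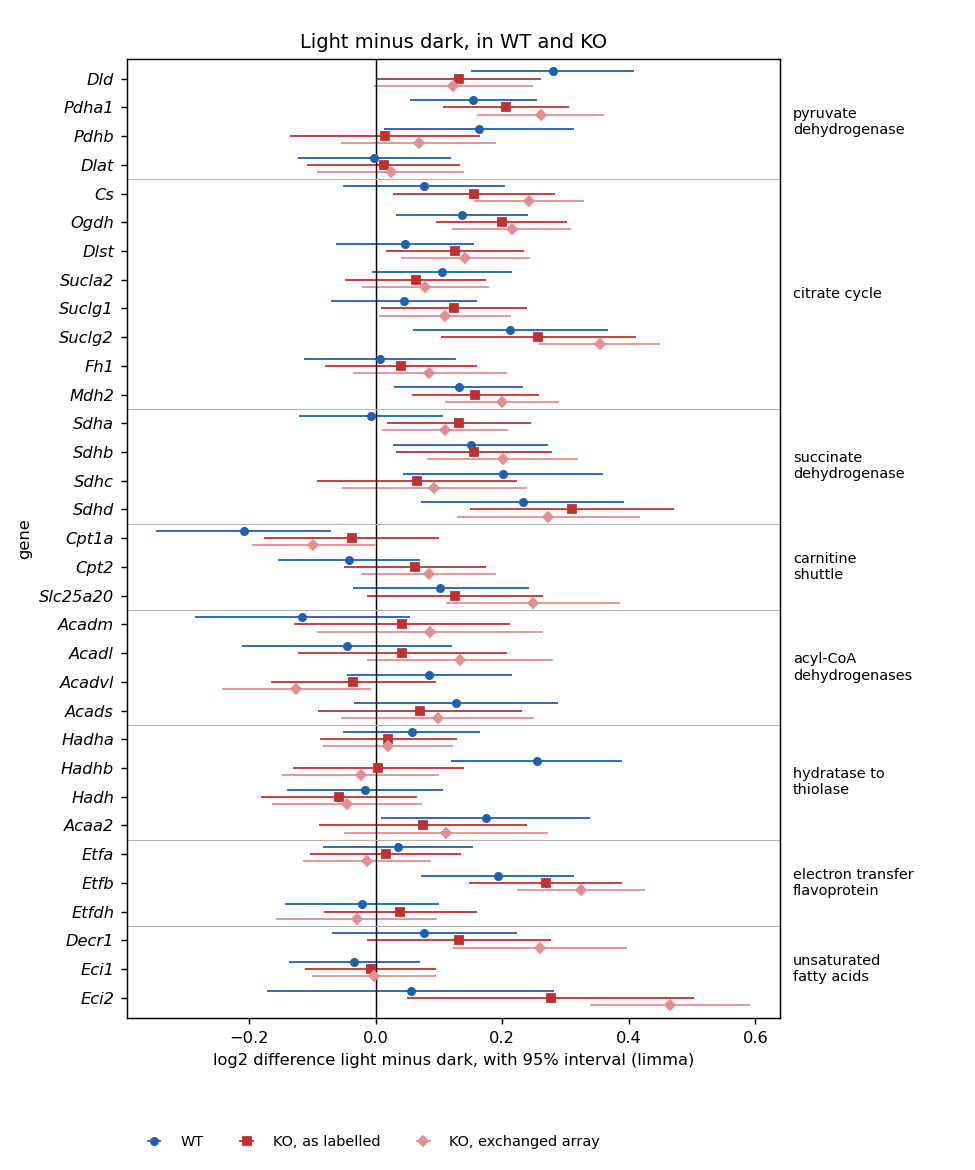
Log2 difference light minus dark (horizontal axis) with the 95% interval of limma for each gene (vertical axis, by role), in WT (circles), in KO as labelled (squares) and in KO with the exchanged array (diamonds), with 3 arrays per group. Eci2 moves from 0.28 to 0.47 in KO when the array is exchanged and lies at 0.06 in WT, and Cpt1a lies at -0.21 in WT and at -0.04 in KO as labelled.

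Cpt1a differed little between the genotypes after light. It had 10.64, 10.65 and 10.87 in KO light, with 10.69 in WT dark 4, and a difference of 0.01 against WT light (SE 0.06). Its interaction was 0.17 (SE 0.09, adjusted p = 0.766). Sdha had 10.93, 10.89 and 11.02 in KO light and 11.11, 10.97 and 10.98 in WT light, which overlapped. Its interaction was 0.14 (SE 0.07, adjusted p = 0.766). Each of the 4 groups enters 2 of these comparisons and the interaction, so that their values are not independent of one another.

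Genes of the same pathways outside the 33 were counted too. Of 22 other genes of pyruvate metabolism and the citrate cycle that were measured, 15 had a lower mean in KO dark (median -0.03) and 14 in KO light (median -0.05). Idh3a, a subunit of isocitrate dehydrogenase 3 and outside the 33 by their definition, was the only one called as labelled in KO dark (-0.41, adjusted p = 0.00573) and in KO light (-0.27, adjusted p = 0.0494). It was also the only one of the 22 called in KO light against KO dark as labelled, where it rose (log2 difference 0.34, adjusted p = 0.0178). The exchanged array gave 3 called lower and 2 higher in KO light against WT light. Besides Idh3a, these were the cytosolic malate dehydrogenase Mdh1 (-0.24) and the pyruvate dehydrogenase phosphatase Pdp2 (-0.35), lower, and the NADP-dependent Idh2 (0.33) and the citrate carrier Slc25a1 (0.35), higher. In KO light against KO dark, the exchanged array gave 4 called higher, which were Idh3a, Sdhaf2 (0.37), an assembly factor of succinate dehydrogenase, Slc25a1 (0.29) and Idh2 (0.27). In WT light against WT dark it gave Acly (0.30), the ATP citrate lyase, and for the interaction Slc25a1 (0.31).

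Of 25 other genes of fatty acid activation and oxidation, 14 had a lower mean in KO dark and 15 in KO light, with medians of -0.01 and -0.02, and none was called as labelled in any comparison. The exchanged array gave Acad11, an acyl-CoA dehydrogenase, as lower in KO dark (-0.39, adjusted p = 0.0284), and Acsl5, an acyl-CoA synthetase, as higher in KO light than in WT light (0.44, adjusted p = 0.0058). In KO light against KO dark, again with that array, Acsl5 (0.52) and Hsd17b10 (0.31) rose and the fatty acid transporter Cd36 (-0.48), Acad10 (-0.28) and Acacb (-0.26), which makes malonyl-CoA, fell. Of 5 genes of ketone body and propionate metabolism, none was called as labelled, and all 5 had lower means in KO than in WT retinae in the dark (median -0.09). Called with the exchanged array were Mcee and Oxct1. Mcee, the methylmalonyl-CoA epimerase, was lower in KO dark (-0.29) and in KO light (-0.36) than in WT, and Oxct1, which activates ketone bodies, was higher in KO light than in KO dark (0.45).

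Among 11 regulators, PGC-1α and its relatives and partners, none was called as labelled. In the other arrangement Esrrb (-0.43) and Ppargc1b (-0.35) were lower and Ppard (0.35) was higher in KO light than in WT light. Of the 19937 genes 730 were called lower and 910 higher there. In KO light against KO dark Ppargc1b (-0.48), Esrrb (-0.34), Esrrg (-0.25) and Ppara (-0.24) fell, and Esrrb was called for the interaction (-0.53). Of the 19937 genes 1256 were called lower in KO light against KO dark and 555 were called for the interaction. Esrra had -0.12 in KO dark and -0.12 in KO light against WT, and was called in neither arrangement.

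Markers of retinal cells differed after light as well. The 9 rod markers had means over the list of 12.20 to 12.23 in KO dark, 12.21 to 12.28 in WT dark, 11.93 to 12.16 in KO light, 12.23 to 12.31 in WT light and 11.88 in the array labelled WT dark 4. All 9 had a lower mean in KO light than in WT light, with a median of -0.19 as labelled and -0.27 with the exchanged array, when 6 were called. The 7 cone markers had medians of -0.18 and -0.39, with 0 and 4 called lower. The 5 markers of reactive glia, Gfap among them, had medians of 0.77 and 1.35, with 0 and 5 called higher, and their summed intensity reached 1646 to 6597 in KO light, 7635 in WT dark 4 and 1410 to 3096 in WT light. Of 8 markers of the retinal pigment epithelium 5 had a higher mean in KO light, with 1 called with the exchanged array (Tyrp1, 1.71). In the dark no rod, cone or glial marker was called in either arrangement, and the medians were -0.02 for rods, -0.10 for cones and -0.07 for reactive glia. Of the markers of other cells, Pvalb (-0.61) from the striated muscle list and Th (0.48) from the amacrine list were called in the dark as labelled. In WT light against WT dark, pigment epithelium markers had lower means in 8 of 8 (median -0.30, Best1 called as labelled), amacrine markers higher means in 6 of 6 (median 0.14, 5 without overlap, Th called) and striated muscle markers lower means in 7 of 7 (median -0.07). The bipolar marker Cabp5 was called higher as well (0.29). Medians for rods, cones and reactive glia were 0.04, -0.13 and 0.68 between light and dark in WT, and -0.10, -0.23 and 1.45 in KO as labelled. The part of these markers in the differences of the 33 genes was not tested.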

How the data were processed

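RNA of 13 mouse retina samples was hybridized to Affymetrix Mouse Gene 1.0 ST arrays. The deposited table holds 1 linear intensity per probe set and array, computed by the authors with Partek and Bioconductor. For versions, normalization and genome build, nothing is given in the sources used here. No signal over background was used, and the number of arrays limits the precision. Probe sets with exactly 1 symbol (21640 of 34760) were taken to log2 and averaged per gene, giving 19937 genes. limma 3.58.1 in R 4.3.3 fitted 4 group means to 12 arrays (8 residual degrees of freedom), with Benjamini-Hochberg adjustment over all genes. WT dark 4 was left out, since the paper gives 3 arrays per group and it was the only male among the dark mice. The interaction was called at an adjusted p under 0.05 alone. In this fit, p-values set each difference against a spread between mice that was pooled over the 4 groups and moderated over genes. The script was tested on simulated data. The members and lists were chosen with earlier results of these data known. All members are named, with array values for those called in either arrangement and for the 3 with the smallest p in each comparison. Other genes of the pathways are named where called, up to 6 per list and comparison, and cell type markers are given mostly by counts. Promoters came from RefSeq, GRCm38.p6, and Python 3.11.15 with pandas 2.3.3 and matplotlib 3.10.9 was used. Alternatives were the exchanged array, all 13 arrays, groups fitted alone, no moderation, 2 normalizations, an offset of 16, dim genes (the lowest 25%) left out, the brightest probe set, the replicate number as a block, and each array left out.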

Additional observations from a re-analysis of the deposited data

Results flagged for a closer look

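In the 4 arrays labelled WT dark, WT dark 4 stood far from the other 3 for 3 of the 33 genes, with a gap to the nearest of them of 0.836 to 0.981 of the whole range. Suclg2 had 7.08 in WT dark 4 and 6.75 to 6.76 in WT dark 1 to 3. Decr1, a reductase for unsaturated chains, had 7.60 and 7.22 to 7.24. Eci2 had 7.94 and 7.54 to 7.61. Chance gives such a gap in about 1 of 20 groups, and all 33 genes were searched, so some are found by chance. How many of all genes show such a gap was not counted. WT dark 4 lay above WT dark 1 to 3 for 14 of the 33 genes and below them for 6. These counts were not made over all genes, so they do not set the 33 genes apart.

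The light response of Eci2 was larger in KO than in WT with the exchanged array, with an interaction of 0.41 on the log2 scale (limma, adjusted p = 0.0211). It was 0.22 as labelled (adjusted p = 0.816), and between 0.0211 and 0.924 for the adjusted p over all alternatives. When KO light 3 was left out it was not called (adjusted p = 0.0601).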

How the results depend on the processing

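Over the 22 alternatives written down at the start and 1 added after the data were seen, the direction of all 19 results on single genes held. Of their 429 values 390 stayed on the same side of the thresholds and 39 passed them where the labelled comparison had not, 19 of these with the exchanged array and 9 without KO light 3. Calls of the 33 genes rose from 0 as follows. In KO dark against WT dark, 1 (Sdhd) was called with the exchanged array, with the groups fitted alone in both arrangements, with dim genes left out, with an offset of 16 and with the brightest probe set. In KO light against WT light 3 were called with the exchanged array, 3 with it and the groups alone, and 1 with the offset. In KO light against KO dark 4 were called with the exchanged array and 4 with it and the groups alone. In WT light against WT dark 2 were called with the exchanged array, and 1 (Dld) with it and the groups alone, with the groups alone as labelled, without dim genes and with the offset. For the interaction 1 was called with the exchanged array.

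Leaving out 1 array at a time gave 0 to 1 calls for KO dark against WT dark (1 without KO light 2, without KO light 3 and without WT light 1), 0 to 2 for KO light against WT light (2 without KO light 3), 0 to 4 for KO light against KO dark (4 without KO light 3), 0 to 2 for WT light against WT dark (2 without KO light 3, 1 without KO light 2) and 0 for the interaction. The median of the 33 genes ran from -0.094 to -0.0632, -0.0594 to -0.0234, 0.0561 to 0.1067, 0.0592 to 0.0865 and 0.0136 to 0.0438 in the same order. In KO light against KO dark it was 0.1067 without KO dark 3 and, in KO light against WT light, -0.0234 without KO light 3.

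The median moved by more than the 0.02 spread between replicates under some alternatives. In KO light against WT light it was -0.0181 with the exchanged array, with all groups and alone. In KO light against KO dark it was 0.1092 with the exchanged array, with all groups and alone. In the same comparison it was 0.0463 after quantile normalization and 0.0425 after subtraction of array medians. It was also 0.1067 there without KO dark 3 and 0.0935 without KO light 3. In WT light against WT dark it was 0.0504 with all 13 arrays, 0.0516 after quantile normalization and 0.0565 after subtraction of array medians. For the interaction it was 0.0649 with the exchanged array. The cause was not tested. With the replicate number as a block, 0 members were called in each comparison and the medians stayed at -0.08, -0.04, 0.07, 0.08 and 0.03. The deviations of same-numbered arrays from their group means correlated at -0.19 to 0.22 over 18 pairs, and only 2 pairs were over 0.1. No pairing by number was therefore seen, though such values cannot show that the mice were unpaired.

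Of all genes, 15 were called in KO dark against WT dark (1 to 175 over the alternatives), 35 in KO light against WT light (0 to 1640), 20 in KO light against KO dark (0 to 2653), 86 in WT light against WT dark (9 to 880) and 12 for the interaction (1 to 555). Standard errors of the 33 genes were 0.05 to 0.10 on the log2 scale, which limits what 3 arrays per group can show.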
